A study of Homo sapiens with 3 samples.

Results

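Phase II conjugation couples a drug, hormone or bile pigment to a water-soluble group so that it can leave the cell. UDP-glucuronosyltransferases (UGT) transfer glucuronic acid from UDP-glucuronic acid, cytosolic sulfotransferases (SULT) transfer sulfate from PAPS, and glutathione S-transferases (GST) couple reactive electrophiles to glutathione. The cytosolic GSTs form classes named by letters (A for alpha, K for kappa, M for mu, O for omega, P for pi, T for theta and Z for zeta), and the microsomal enzymes (MGST) are a separate membrane family. Hepatocytes are known for high UGT, SULT and alpha-class GST levels, whereas GSTP1 is typical of many other epithelia and of stromal cells and is low in normal hepatocytes.

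The genes were found by their symbols, which gave 53 of the 25270 gene rows in the files: 19 UGT genes, 13 SULT genes, 18 cytosolic GST genes and 3 MGST genes. The first library came from parental HepG2 cells, a human hepatocellular carcinoma line that received no treatment. The second came from HepG2/metR cells, the survivors of more than 5 months of metformin, an inhibitor of mitochondrial complex I. The third came from HepG2/metR cells after 24 h in 40 mM oxamate, which blocks lactate dehydrogenase. The study names 1 serum-containing medium for its cell lines, HepG2 among them, and does not describe the medium of the sequenced cultures separately. Whether HepG2/metR is 1 clone, and whether metformin was present at harvest, is not given in the sources used here. There was 1 library per condition (n = 1), so every difference below compares libraries, carries no error and has no p-value. What selection did and how the cultures differed for other reasons cannot be told apart, nor, in bulk RNA, can fewer cells of a kind and less RNA per cell.

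Levels are given in FPKM (fragments per kilobase of transcript, scaled to the mapped fragments of the library and back-transformed from the deposited log2 values), which allows genes of different length to be compared. Where 3 levels of a gene follow each other, they are those of parental cells, of HepG2/metR cells and of HepG2/metR cells with oxamate, in this order. The summed FPKM ran from 473773 to 562382 over the libraries, and 11356 to 11649 genes reached 1 FPKM. The number of reads is unknown, so no lower limit of detection is given and a gene without signal is described as listed at 0. The hepatocyte label was checked with 13 markers fixed with the design. All 13 were above 1 FPKM in parental cells, where their summed level was 34197 FPKM, and 11 of the 13 were below 1 FPKM in each HepG2/metR library, where the sums were 14.04 and 11.1 FPKM without and with oxamate. TTR was listed at 0 in both. Of 8 mesenchymal markers, with sums of 6.53, 1637 and 1204 FPKM, VIM, THY1 and LUM passed 2-fold upward in HepG2/metR. VIM alone was listed at 1.23, 1576 and 1140 FPKM. COL1A1, COL1A2, COL3A1 and DCN were below 1 FPKM in both HepG2/metR libraries, and COL1A1 was at 1.22 FPKM in parental cells. PDGFRB was listed at 3.43, 3.66 and 7.26 FPKM. Of 4 epithelial markers EPCAM (101.7, 0.08997 and 0.0661 FPKM) and CDH1 (5.92, 0.0365 and 0.0214 FPKM) were lower in HepG2/metR cells, and KRT8 and KRT18 did not pass 2-fold. The part of these shifts in the results below was not tested.

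Most conjugation genes expressed in parental cells were far lower in HepG2/metR cells, and the gene with the highest level changed from MGST1 to GSTP1. Of the 53 genes, 24 reached 1 FPKM in parental cells and 14 of those 24 (58.3%) were below 1 FPKM in HepG2/metR cells, compared with 11.6% of the 11356 genes that reached 1 FPKM in parental cells. The loss took all 4 UGT genes and all 6 SULT genes that parental cells expressed, 4 of 11 cytosolic GST genes and 0 of 3 MGST genes. In the opposite direction 3 genes, GSTP1, GSTM1 and SULT4A1, reached 1 FPKM in HepG2/metR cells but not in parental cells. In the plot of levels by library, the HepG2/metR points with and without oxamate lie close together for nearly every gene, and most lie far from the parental point.

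**Figure D1:**
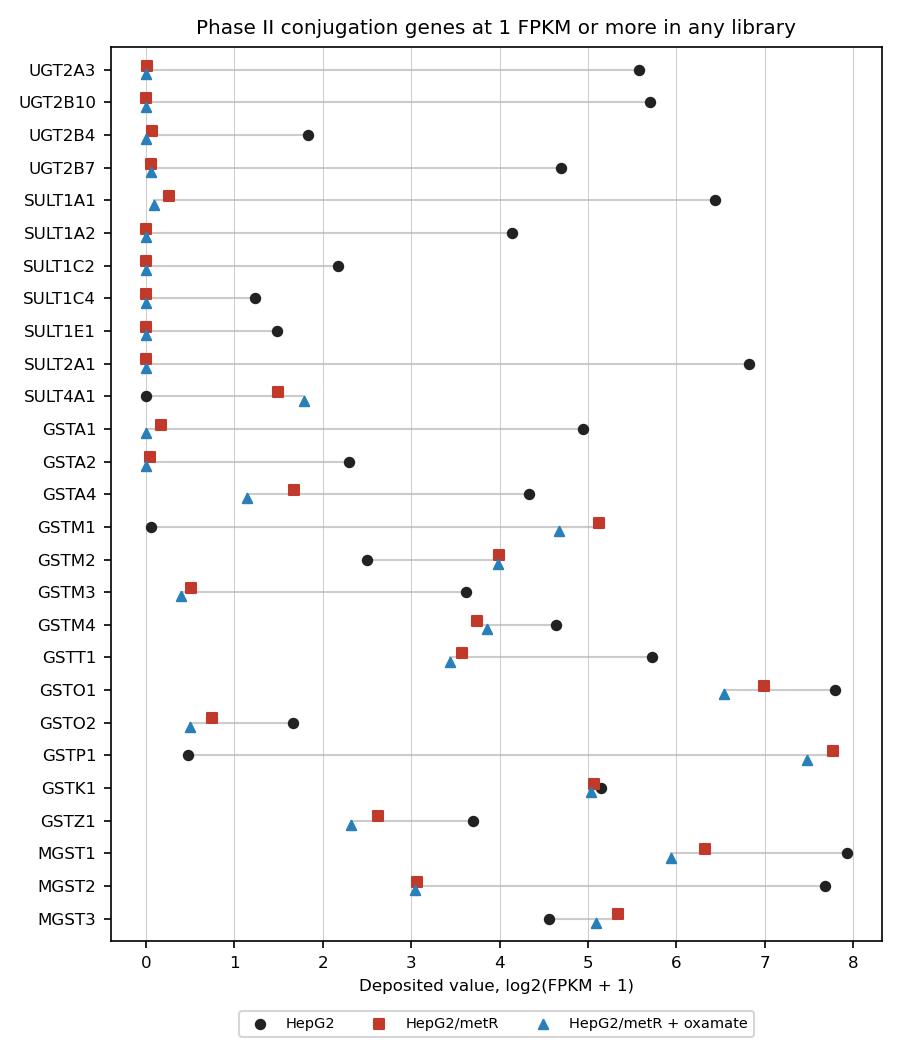
Deposited log2(FPKM + 1) value (horizontal axis) of the 27 conjugation genes that reached 1 FPKM in any of the 3 libraries, 1 point per library and no replicates. UGT and SULT genes other than SULT4A1 sit near 0 in both HepG2/metR libraries, while GSTP1 and GSTM1 are near 0 in parental HepG2 cells only.

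Changes were taken as differences of the deposited log2(FPKM + 1) values over genes with a mean of at least 1 FPKM in the 3 libraries, a scale that understates changes of low genes. This filter kept 24 of the 53 conjugation genes. Of the 24, 15 were lower in HepG2/metR than in parental cells by 2-fold or more, against 17.6% of all 12210 genes kept. Another 4 were at least 2-fold higher (GSTP1, GSTM1, GSTM2 and SULT4A1), against 16.6% of all genes kept, a share close to that of the 24. The median change was -2.16, beside 0.015 for all genes kept. However, 14 of the 24 reached 1 FPKM in only one of these 2 libraries and could hardly have passed the filter without differing. Among the 10 genes at 1 FPKM or more in both, 5 were at least 2-fold lower (GSTA4, GSTT1, GSTZ1, MGST1 and MGST2) and 1 was at least 2-fold higher (GSTM2), against 13.2% and 9.66% of 10041 genes.

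**Figure D2:**
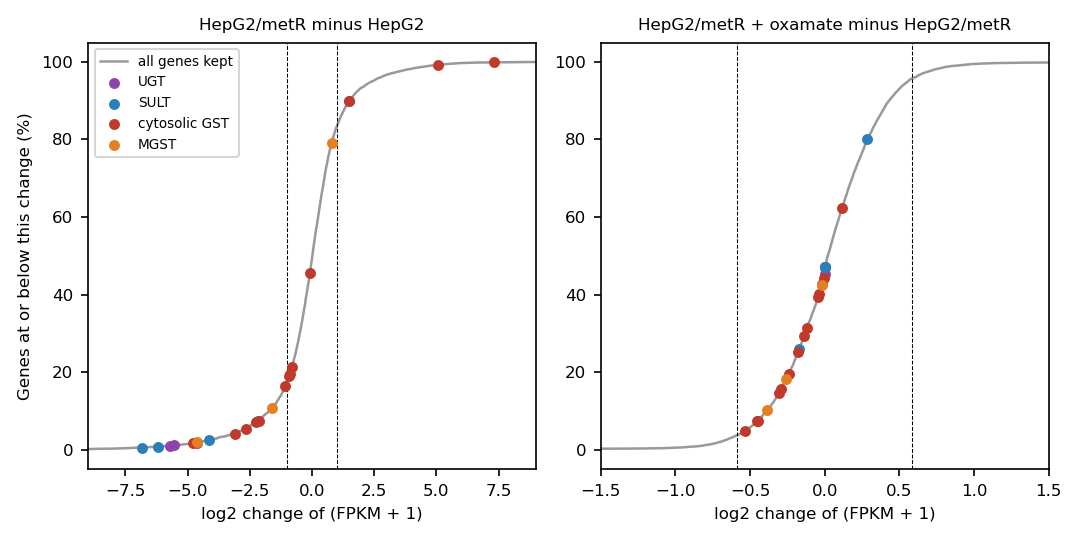
Cumulative share of the 12210 genes kept (vertical axis, %) against the log2 change of FPKM + 1 (horizontal axis), for HepG2/metR minus HepG2 on the left and oxamate-treated minus untreated HepG2/metR on the right. Coloured points place the 24 conjugation genes kept on the curve, and dashed lines mark 2-fold on the left and 1.5-fold on the right. The points crowd the low end on the left and all lie between the dashed lines on the right.

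The sequence around the start is shown for 5 genes, 3 that fell below 1 FPKM in HepG2/metR cells (GSTA1, UGT2B7 and SULT2A1) and 2 that rose above it (GSTP1 and GSTM1), chosen because they differ widely in CpG content. RefSeq (GRCh38.p14) gave a promoter window, 250 bases before to 50 bases after the start, for 42 of the 53 genes. The set of windows used here held none for GSTT1, GSTT2, GSTT2B, MGST2, SULT1A1, SULT1A2, SULT4A1, UGT1A10, UGT2B4, UGT2B17 and UGT2B28. RefSeq itself lists these genes, apart from GSTT2, so their lack of a window is a gap of that set. The windows lie at chr11:67583562-67583861 (plus strand) for GSTP1, chr1:109687567-109687866 (plus strand) for GSTM1, chr6:52803767-52804066 (minus strand) for GSTA1, chr4:69096224-69096523 (plus strand) for UGT2B7 and chr19:47886266-47886565 (minus strand) for SULT2A1. These are reference positions of that build. The submitters' processing notes name hg19 for the files. Each sequence is printed 5′ to 3′ on the strand of its gene, with CpG dinucleotides, the sites of DNA methylation, in capitals.
GSTP1: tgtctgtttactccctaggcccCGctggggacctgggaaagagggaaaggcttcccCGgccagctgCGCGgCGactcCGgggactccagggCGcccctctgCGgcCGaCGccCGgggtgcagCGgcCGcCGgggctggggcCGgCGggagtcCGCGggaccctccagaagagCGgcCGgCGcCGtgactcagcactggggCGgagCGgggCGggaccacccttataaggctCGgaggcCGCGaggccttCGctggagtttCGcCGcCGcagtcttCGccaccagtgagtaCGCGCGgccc
GSTM1: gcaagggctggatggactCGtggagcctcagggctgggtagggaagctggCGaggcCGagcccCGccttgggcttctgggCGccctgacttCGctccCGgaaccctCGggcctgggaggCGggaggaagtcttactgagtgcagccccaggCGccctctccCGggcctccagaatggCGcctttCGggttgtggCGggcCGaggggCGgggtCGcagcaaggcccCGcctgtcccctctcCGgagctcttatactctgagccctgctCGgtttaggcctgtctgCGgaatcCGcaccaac
GSTA1: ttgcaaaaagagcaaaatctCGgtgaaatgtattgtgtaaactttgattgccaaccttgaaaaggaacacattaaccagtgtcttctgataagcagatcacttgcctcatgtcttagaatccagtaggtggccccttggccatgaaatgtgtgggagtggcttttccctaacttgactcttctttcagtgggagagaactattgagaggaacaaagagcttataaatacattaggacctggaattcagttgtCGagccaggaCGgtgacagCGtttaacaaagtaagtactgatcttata
UGT2B7: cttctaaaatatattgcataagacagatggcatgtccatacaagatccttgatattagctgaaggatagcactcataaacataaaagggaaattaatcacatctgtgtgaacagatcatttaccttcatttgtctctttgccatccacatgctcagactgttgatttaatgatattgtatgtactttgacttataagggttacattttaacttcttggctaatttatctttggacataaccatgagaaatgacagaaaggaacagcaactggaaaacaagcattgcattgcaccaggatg
SULT2A1: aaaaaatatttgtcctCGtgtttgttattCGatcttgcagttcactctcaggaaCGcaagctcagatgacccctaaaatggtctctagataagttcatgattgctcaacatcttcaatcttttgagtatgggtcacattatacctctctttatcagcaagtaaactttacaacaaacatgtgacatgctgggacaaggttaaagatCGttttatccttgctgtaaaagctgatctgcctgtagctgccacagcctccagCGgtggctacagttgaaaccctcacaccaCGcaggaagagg

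GSTP1 has 36 CpGs in its window and GSTM1 has 22, whereas SULT2A1 has 6, GSTA1 has 4 and UGT2B7 has 0. The median over all 35116 promoter windows was 14. By family, counting the most CpG-rich start of each gene, the median was 2 for UGT genes (range 0 to 6), 1 for SULT genes (0 to 15), 17 for cytosolic GST genes (1 to 36) and 20.5 for MGST genes (19 and 22). The contrast between the printed genes does not hold for every gene, since GSTO2, which fell from 2.17 to 0.673 FPKM, has 24 CpGs, more than GSTM1. The log2 change of GSTO2 was -0.92, short of 2-fold on the scale of log2(FPKM + 1). With 0.1 added in place of 1, the change of GSTO2 was -1.56, past 2-fold. GSTZ1, with 33 CpGs, was at least 2-fold lower, at -1.07. The 8 genes kept with fewer CpGs than the median window were all below 1 FPKM in HepG2/metR cells and passed the filter only through the parental library, so they had to be lower and nothing is read from their direction. Over all genes kept with a window, 35.1% of 869 CpG-poor genes and 15.0% of 8232 CpG-rich genes were at least 2-fold lower, and 25.8% and 14.7% were at least 2-fold higher. CpG-poor genes thus changed more often in both directions. However, 630 of the 869 CpG-poor genes and 7851 of the 8232 CpG-rich genes reached 1 FPKM in HepG2/metR cells. The filter may thus fix the change of more CpG-poor genes, so nothing is read from their higher shares. Methylation itself was not measured. The CpG count was chosen after the levels had been seen.

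Letters known from binding sites of stress-response factors were searched on both strands. TGACNNNGC, the core of the antioxidant response element, was found in 11 of the 42 genes, and in 16.1% of all genes with a window (13.3% of windows). The 11 genes were GSTA4, GSTM1, GSTM5, GSTO1, GSTP1, MGST1, SULT1C2, UGT1A5, UGT1A6, UGT2B10 and UGT2B11, and so included genes that rose and genes that were lost. TGAGTCA, bound by AP-1, was found in GSTP1 alone of the 42 genes and in 6.05% of all genes with a window (4.95% of windows). The GSTP1 match lies 66 bases before the start and overlaps its TGACNNNGC match. A match is a description of the letters and not an observed site.

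The UGT2 glucuronidation genes that parental cells expressed were lost almost completely. The summed level of the 10 UGT2 genes was 126, 0.106 and 0.0396 FPKM. UGT2B10, which glucuronidates amines such as nicotine, was listed at 50.9 FPKM in parental cells and at 0 in both HepG2/metR libraries. UGT2A3 fell from 46.6 to 0.0122 FPKM and was at 0 with oxamate. UGT2B7, the main enzyme for morphine and several steroids, was listed at 24.9, 0.0404 and 0.0396 FPKM. These genes made up 97.1% of the UGT2 sum in parental cells, and their log2 changes were -5.70, -5.56 and -4.64. UGT2B4, which acts on bile acids, was listed at 2.55, 0.0536 and 0 FPKM, and UGT2B11 at 0.987 FPKM in parental cells and 0 in the others. UGT2B15, UGT2B17, UGT2B28, UGT2A1 and UGT2A2 were at or below 0.0505 FPKM in every library.

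The UGT2 genes lie side by side on chromosome 4 with SULT1B1 and SULT1E1 at the end of the row. In RefSeq order this block holds 12 of the 53 genes. In parental cells 5 of the 12 reached 1 FPKM, and in HepG2/metR cells 3 of the 12 were above 0, none higher than 0.0536 FPKM. YTHDC1, a ubiquitous gene on one flank of the block, was listed at 16.3, 20.3 and 25.2 FPKM. The neighbouring TMPRSS11E and, on the other flank, CSN1S1 were at 0 in every library.

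The 9 UGT1A genes, which include the bilirubin enzyme UGT1A1, share their last exons and overlap each other on chromosome 2, so reads from those exons cannot be assigned to 1 of them. Their sum was 0.406 FPKM in parental cells and 0 in both HepG2/metR libraries. UGT1A6, UGT1A3 and UGT1A1 were listed at 0.143, 0.132 and 0.131 FPKM in parental cells and the other UGT1A genes at or next to 0. How the authors' program divided reads of overlapping genes is not given in the sources used here, so these low values may not stand for the locus. All UGT2B genes are also close paralogs, and how reads were split between them is uncertain.

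Sulfation genes were lost as well, with the exception of a brain-type member. The SULT sum was 221, 2.16 and 2.58 FPKM. SULT2A1, the hepatic enzyme that sulfates dehydroepiandrosterone and bile acids, was listed at 112 FPKM in parental cells and supplied 50.6% of the SULT sum. It was at 0 in both HepG2/metR libraries, a log2 change of -6.82, the largest fall among the 53 genes. SULT1A1, the main phenol sulfotransferase, was listed at 85.6, 0.199 and 0.0651 FPKM. Its neighbour and close paralog SULT1A2 was listed at 16.7 FPKM in parental cells and 0 in both others.

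SULT1C2, SULT1E1, the estrogen sulfotransferase, and SULT1C4 were listed at 3.52, 1.80 and 1.35 FPKM in parental cells and at 0 in HepG2/metR cells with and without oxamate. SULT1A3 and SULT1A4 are near-identical copies of the dopamine sulfotransferase gene, and both were at or next to 0 in every library, which is where reads that match both copies can leave them. SULT4A1, a member known from brain with no established substrate, was listed at 0, 1.83 and 2.45 FPKM. SULT2B1, the cholesterol sulfotransferase of skin, was at 0, 0.138 and 0.0678 FPKM. SULT1B1 did not exceed 0.0375 FPKM, and SULT1C3 and SULT6B1 were at 0 in every library.

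Cytosolic GST genes kept their summed level but changed class. Their sum was 415, 457 and 370.1 FPKM. In parental cells the omega class made up 53.8% of the sum, the alpha class 12.8%, the theta class 12.5% and the pi class 0.0936%. In HepG2/metR cells the pi class made up 47.7%, the omega class 27.7%, the mu class 13.5%, the theta class 2.42% and the alpha class 0.516%. With oxamate the pi class made up 48.0% and the alpha class 0.328%, so the composition of both HepG2/metR libraries was alike and that of parental cells stood apart.

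**Figure D3:**
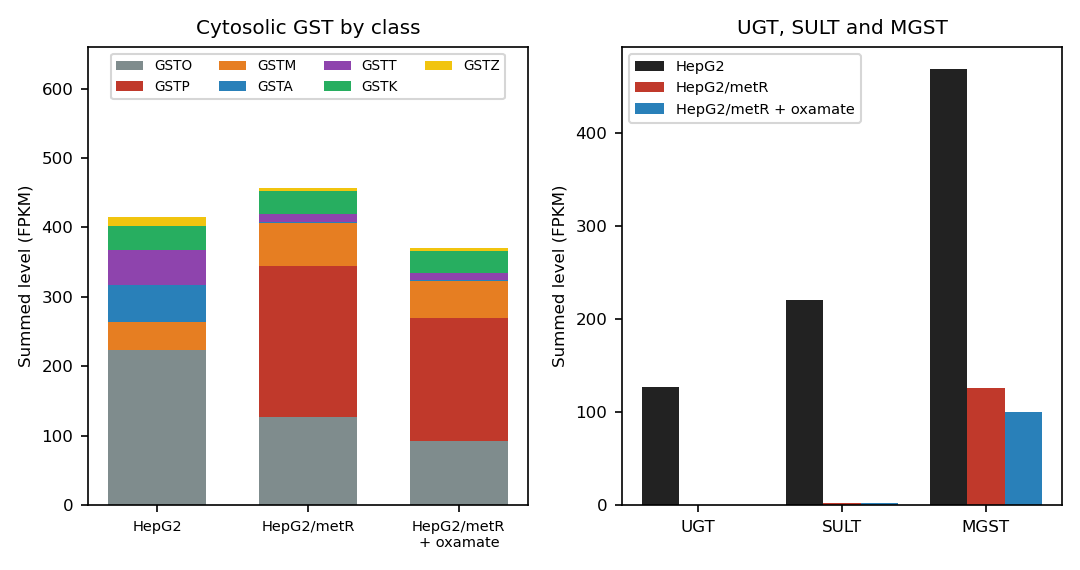
Summed level (FPKM, vertical axis) of the cytosolic GST genes stacked by class on the left and of the UGT, SULT and MGST genes on the right, in the 3 libraries (1 each, no error bars). The cytosolic GST bars have similar heights, 415, 457 and 370.1 FPKM, while the pi class, GSTP1, fills 47.7% of the HepG2/metR bar and is not visible in the parental one.

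GSTP1 had the largest rise of all 53 genes. It was listed at 0.388, 218 and 178 FPKM, a log2 change of 7.30 in HepG2/metR. GSTP1 became the highest gene of the whole group in both HepG2/metR libraries. In parental cells that place belonged to MGST1.

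The alpha class moved the other way. GSTA1, the main alpha enzyme of hepatocytes, was listed at 29.8, 0.13005 and 0 FPKM and its near-identical neighbour GSTA2 at 3.90, 0.0310 and 0 FPKM. GSTA4, which conjugates the lipid peroxidation product 4-hydroxynonenal, was listed at 19.2, 2.198 and 1.21 FPKM and was the only alpha gene left above 1 FPKM. GSTA3 did not exceed 0.0591 FPKM, and GSTA5 was at 0 in every library. The class sum fell 22.5-fold, from 53.0 to 2.36 FPKM. FBXO9 and ELOVL5, further along chromosome 6 on the GSTA4 side, were listed at 14.4 and 13.8 FPKM and at 69.5 and 114 FPKM in parental and HepG2/metR cells, whereas GCLC, further along, fell from 38.9 to 9.002 FPKM.

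The mu genes, which lie in 1 row on chromosome 1, moved in opposite directions. GSTM1, a gene that many human genomes lack, was listed at 0.0423, 33.8 and 24.5 FPKM. Its neighbour GSTM2 was 3.21-fold higher in HepG2/metR, with 4.66, 15.0 and 14.9 FPKM. GSTM4, on the outer side of GSTM2, was listed at 23.8, 12.4 and 13.5 FPKM and did not pass 2-fold, at -0.89 on the log2 scale. GSTM3, at the far end of the row, was lower, with 11.3, 0.430 and 0.319 FPKM, and GSTM5, between GSTM1 and GSTM3, was at 0 in every library. How reads were split between these close paralogs is uncertain, and the sum of the mu genes was 39.9, 61.6 and 53.2 FPKM. EPS8L3, the next gene after GSTM3, was at 12.9 FPKM in parental cells and 0 in the others, and AMPD2, next to GSTM4, was at 20.9, 17.3 and 20.7 FPKM.

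The remaining cytosolic classes were lower or level. GSTO1, which reduces dehydroascorbate, was the highest cytosolic GST gene of parental cells and was listed at 221, 126 and 91.7 FPKM, a log2 change of -0.81 in HepG2/metR. GSTO2, beside it, was at 2.17, 0.673 and 0.417 FPKM. GSTT1, which acts on small halogenated compounds, was 4.74-fold lower in HepG2/metR, with 51.7, 10.9 and 9.84 FPKM. GSTZ1, the maleylacetoacetate isomerase of tyrosine breakdown, was listed at 11.97, 5.18 and 3.999 FPKM and passed 2-fold only just, at -1.07. GSTK1, an enzyme of mitochondria and peroxisomes, was nearly the same in all libraries, with 34.6, 32.6 and 31.7 FPKM. The near-identical GSTT2 and GSTT2B did not exceed 0.154 FPKM, which is where reads that match both copies can leave them.

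All 3 microsomal GST genes stayed above 1 FPKM in every library, with MGST1 and MGST2 lower and MGST3 higher in HepG2/metR cells. MGST1, a detoxifying enzyme of the endoplasmic reticulum and outer mitochondrial membrane, was the highest of the 53 genes in parental cells and was listed at 243, 79.2 and 60.3 FPKM. MGST2, which can make leukotriene C4, was 27.7-fold lower in HepG2/metR, with 204, 7.36 and 7.24 FPKM. MGST3 was higher, with 22.6, 39.6 and 33.0 FPKM, but below the 2-fold threshold at 0.79. Its share of the MGST sum was 4.81% in parental and 31.4% in HepG2/metR cells, while that of MGST2 went from 43.4% to 5.84%. In RefSeq the spans of MGST1 and MGST2 overlap those of LMO3 and MAML3, so some reads there could belong to either gene.

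Oxamate changed none of these genes past the threshold of 1.5-fold (0.58 on the log2 scale) used for that comparison. Of the 24 conjugation genes kept, 0 were at least 1.5-fold higher and 0 at least 1.5-fold lower, against 4.3% and 3.82% of all genes kept (10.1% and 1.6% after scaling the libraries to equal FPKM totals). With shares this small, 0 of 24 is close to that of all genes. Only 13 of the 24 reached 1 FPKM in both HepG2/metR libraries. Genes near 0 in untreated HepG2/metR, such as SULT2A1, could not be called lower on this scale, so nothing is read from these counts. No lost UGT or SULT gene came back: all those that parental cells expressed were at or below 0.0651 FPKM with oxamate. Among the 13 genes at 1 FPKM or more in both HepG2/metR libraries, 11 were lower with oxamate, by -0.53 for GSTA4, -0.45 for GSTO1 and GSTM1, -0.39 for MGST1, -0.31 for GSTZ1 and -0.29 for GSTP1. MGST3 and GSTT1 were at -0.26 and -0.14. GSTK1, MGST2 and GSTM2, also counted as lower, hardly changed, at -0.037, -0.020 and -0.0077. SULT4A1 and GSTM4 were higher, by 0.29 and 0.12. The median was -0.26, and 46.7% of all 11282 genes at that level were lower, with a median of 0.025. After scaling to equal totals, 7 of the 13 were lower and the median was -0.088, beside 0.18 for all such genes. The difference from the median of all such genes was -0.27 in place of -0.28. Scaling moves all genes nearly alike, so this difference could hardly have changed and nothing is read from it. GSTA4 was 0.552 times its untreated level in FPKM, a drop of more than 1.5-fold that the added 1 in log2(FPKM + 1) brings under the threshold.

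Genes that feed the conjugation reactions were taken from lists fixed with the design, which were chosen with earlier results of these data known. Their counts are to be read against the shares of all genes kept that passed 2-fold in HepG2/metR, 17.6% downward and 16.6% upward. However, list genes that reached 1 FPKM in only one of these 2 libraries could hardly have passed the filter without differing. This holds for every list below, so no excess over all genes is read from the counts. For glucuronic acid, 2 of 5 genes kept passed downward and 0 upward. UGDH, which makes UDP-glucuronic acid, was listed at 176, 11.7 and 14.7 FPKM, and SLC35B1 had the highest change of the list, 0.086. For PAPS and sulfate, 3 of 12 genes kept passed downward and 2 upward, shares close to those of all genes. PAPSS1 and PAPSS2 both encode PAPS synthases and differed in direction. PAPSS1 was listed at 42.4, 25.8 and 27.4 FPKM and PAPSS2 at 0.0673, 40.6 and 45.6 FPKM. The sulfate carrier SLC26A1 was listed at 9.13, 0.0354 and 0.0696 FPKM, the largest fall of the list, and another sulfate carrier, SLC26A2, at 4.13, 16.6 and 30.6 FPKM. With oxamate SLC26A2 and the arylsulfatase gene ARSA were higher by 0.85 and 0.65, past 1.5-fold.

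For glutathione, 7 of 18 genes kept passed 2-fold downward in HepG2/metR and 1 upward, beside 17.6% and 16.6% of all genes kept. GCLC, the catalytic subunit of the first enzyme of glutathione synthesis, was listed at 38.9, 9.002 and 12.8 FPKM, while its partner GCLM was at 15.5, 27.1 and 37.7 FPKM. DPEP1, a peptidase that acts on glutathione conjugates, had the largest fall, with 23.5, 0.165 and 0.0926 FPKM. CHAC1, which degrades glutathione, had the largest rise, with 0.0304, 21.6 and 3.702 FPKM. CHAC1 and the transsulfuration gene CBS were lower with oxamate by more than 1.5-fold, at -2.27 and -0.75. Of 11 glutathione peroxidase, glyoxalase and related genes, 5 passed 2-fold downward in HepG2/metR and 1 upward, beside the same shares of all genes. GPX2 was listed at 397, 0.117 and 0.0384 FPKM and GPX8 at 0.737, 30.3 and 30.02 FPKM.

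Of the other conjugating enzymes, 4 of 7 genes kept passed 2-fold downward in HepG2/metR and 1 upward, beside 17.6% and 16.6% of all genes kept. HNMT, which methylates histamine, was listed at 94.4, 0.08699 and 0.0209 FPKM, and NNMT, which methylates nicotinamide, at 0, 113 and 123 FPKM. Of 3 related transferases kept outside the symbol rule, 1 passed, TPST1, which sulfates protein tyrosines, at -1.18, and TPST2 was at -0.38. Of 8 transporter genes kept, 4 passed 2-fold downward and 2 upward, beside the same shares of all genes. The export pump gene ABCC3 had the largest fall, with 22.2, 0.2103 and 0.4903 FPKM. Another export pump, ABCC2, was listed at 104, 17.6 and 32.2 FPKM and was higher with oxamate by 0.84. The uptake carrier SLCO1B3 had the largest rise of that list, with 0.0146, 4.27 and 6.78 FPKM.

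Regulators known to act on conjugation genes included several that were nearly absent from HepG2/metR cells. Of 18 regulators kept, 9 passed 2-fold downward in HepG2/metR and 2 upward, beside 17.6% and 16.6% of all genes kept. Several of the 9 were below 1 FPKM in HepG2/metR and passed the filter only through the parental library. They had to be lower, so nothing is read from these counts. HNF4A, which sets the hepatocyte programme, was listed at 68.7, 0.0156 and 0.0153 FPKM. The xenobiotic receptor gene NR1I2 (PXR) was listed at 7.58, 0.0246 and 0.0482 FPKM. MAFF, a small partner of NRF2-type factors, had the largest rise of the list, with 5.19, 14.4 and 11.9 FPKM. NFE2L2, which encodes the antioxidant response factor NRF2, was at 90.4, 39.3 and 38.3 FPKM and its inhibitor KEAP1 at 37.7, 11.1 and 13.97 FPKM. AHR, the dioxin receptor gene, was at 7.89, 5.48 and 7.11 FPKM, and NR1I3 (CAR) did not exceed 0.0957 FPKM. With oxamate MAFK, a partner of NRF2, was higher by 0.69. An mRNA level is not the activity of a factor, and the part of these genes in the changes of the conjugation genes was not tested.

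**Figure D4:**
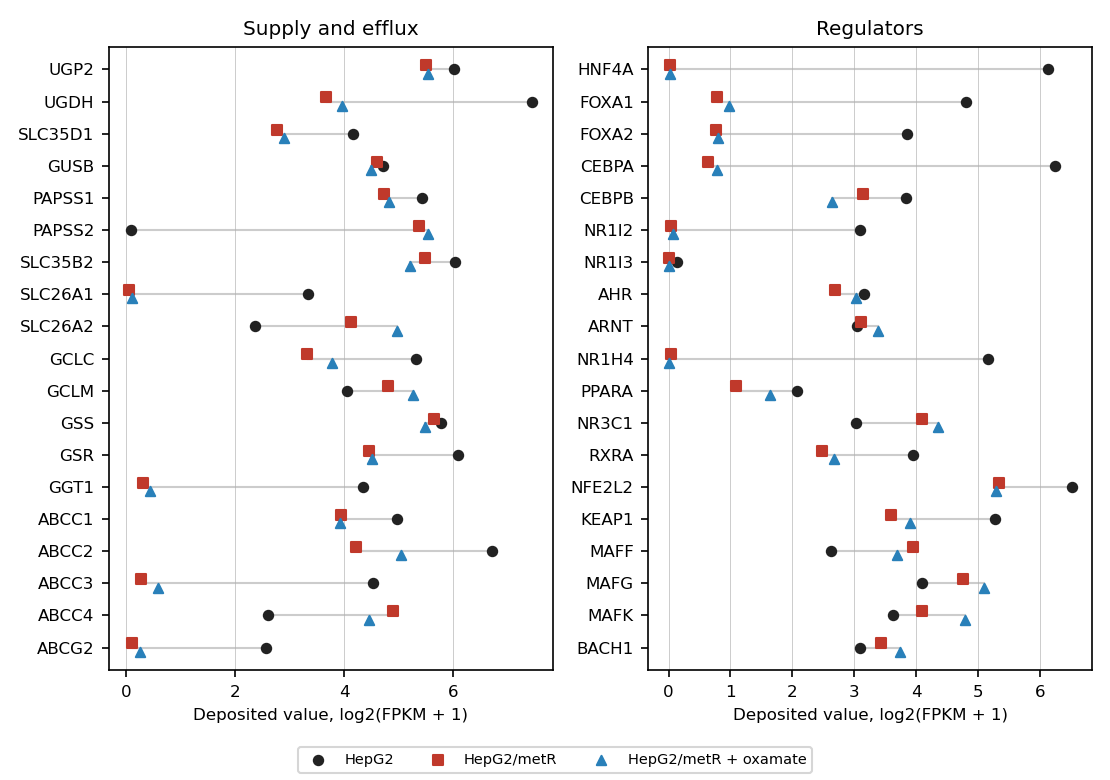
Deposited log2(FPKM + 1) values (horizontal axis) of supply and transport genes on the left and regulators on the right, 1 point per library and no replicates. UGDH, SLC26A1, GGT1, ABCC3, HNF4A, CEBPA, NR1H4 and NR1I2 are far lower in both HepG2/metR libraries than in parental HepG2, while PAPSS2, ABCC4 and MAFF are higher.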

How the data were processed

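Total RNA extracted with Trizol was sequenced by the authors on an Illumina NextSeq instrument, 1 library for each of 3 conditions. The authors deposited 1 log2 value per gene symbol and library. They were read as log2(FPKM + 1), because after undoing that transformation the FPKM had at most 6 significant digits for 100% of values above 1. The submitters' processing notes name FastQC 0.11.5, STAR 2.5.1b, Cufflinks 2.2.1 and hg19, without roles or options. Annotation, strand setting and filters are not given in the sources used here, and neither is depth in reads.

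Values were used without further scaling. Genes with a mean of at least 1 FPKM over the 3 libraries were kept, and the thresholds of 2-fold (HepG2/metR) and 1.5-fold (oxamate) are those of the study. With 1 library per condition no test was made. Every conjugation gene could be named. Of each pathway list, the largest rise and fall in HepG2/metR, the genes past 1.5-fold with oxamate and 5 regulators (HNF4A, NFE2L2, NR1I2, NR1I3 and AHR) were named, and other supply genes and neighbouring genes were named after their values had been seen. The conjugation genes and the lists were chosen with earlier results of these data known, and the CpG count, the motifs, the split by 1 FPKM and the count of genes lower with oxamate after values had been seen. Of the rows, 28 had symbols turned into dates and matched no list. Some regulators are not reported here. The call rule was tested on simulated data. Promoters came from RefSeq (GRCh38.p14) by symbol, and CpGs and motifs were counted in them. Alternatives were other filters, a pseudocount of 0.1, other scalings, other fold thresholds and sums over paralogs. Python 3.11, numpy 2.4.6, pandas 2.3.3 and matplotlib 3.10.9 were used.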

Additional observations from a re-analysis of the deposited data

How the results depend on the processing

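The counts of conjugation genes at least 2-fold lower in HepG2/metR (15) and at least 2-fold higher (4) ranged from 12 to 18 and from 3 to 5 over all alternatives. The number of conjugation genes counted ran from 19 to 53. The shares of all genes ran from 9.6% to 27% downward and from 8.31% to 26.7% upward. With a 1.5-fold threshold 5 of 24 were higher, against 26.7% of all genes. The median log2 change in HepG2/metR was -0.083 with no filter, which takes in the 29 genes under the filter, -1.75 for genes at 1 FPKM or more in any library and -2.65 with a pseudocount of 0.1. With a pseudocount of 0.1 the median with oxamate was -0.22. At that setting 3 of 24 genes (GSTA1, GSTA4 and SULT1A1) were at least 1.5-fold lower, beside 4.97% of all genes kept. Of these, GSTA1 and SULT1A1 were below 1 FPKM in HepG2/metR. With libraries scaled to equal totals, a setting applied to this count after seeing the data, 7 of 13 expressed genes were lower with oxamate in place of 11. The median change of all genes kept was 0.15 in place of 0.015 in HepG2/metR under upper-quartile scaling, with which GSTZ1 changed by -0.94 and no longer passed 2-fold, and was 0.17 with oxamate under equal totals. No gene past a threshold changed direction under these alternatives. No paired analysis was possible because each condition has 1 library, and no library could be left out. Depth in reads is unknown, which limits what a value near 0 can show.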
